A study of Homo sapiens with 24 samples.

Results

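Δ133p53α1 is a clonal cell line that stably expresses Δ133p53α, and it was compared with a vector-only control line. Both lines derive from NCI-H1299, a p53-deficient line of human non-small cell lung cancer. The comparison used the 4 libraries labelled ALPHA 1 and the 4 labelled NULL 1, which are 8 of the 24 libraries of the series. The same p53-deficient background was thus present in every group, and the labels name no treatment other than the plasmid or the empty vector. Libraries of 4 other clones, Δ133p53α2, Δ133p53α8, Δ133p53β5 and Δ133p53β10, were used for reference (15 libraries). Δ133p53α1 is 1 clone, so an effect of the isoform cannot be told apart from a difference between 1 clone and the control line. The labels do not say whether the replicates were separate cultures, and p-values here measure only the spread between libraries.

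The Δ133p53 isoforms are amino-terminally truncated forms of p53 that are transcribed from a promoter inside the gene. They lack the transactivation domains and the first part of the DNA-binding domain. The α form keeps the full carboxy-terminal end, including the oligomerization domain, and the β form ends in an alternative exon. Full-length p53 is best known as a transcription factor that induces cell cycle arrest and apoptosis genes, such as CDKN1A, and its own inhibitor MDM2. In this report, the values of a line are given in replicate order, with replicate 1 first and set off by "then" from replicates 2 to 4. Levels are reads per gene, or CPM, the reads per 1000000 after scaling of the library sizes by the TMM method. A value after ± is the SD of the libraries where it follows a level in CPM, and the standard error of the fit where it follows a difference on the log2 scale.

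The libraries of each line were not alike. Total counts were 21862795 to 22114711 in Δ133p53α1, and 25381731 in replicate 1 of the control against 21722129 to 21953986 in the other control libraries. For every library, gene deviations from the average level were correlated by rank with exon length, across genes, and the sign of this correlation sorted the libraries. In Δ133p53α1, replicate 1 had a positive rank correlation of 0.298 and replicates 2 to 4 negative ones of -0.268, -0.270 and -0.246. In the control the order was the opposite, with -0.126 in replicate 1 and 0.201, 0.180 and 0.205 in replicates 2 to 4. The sets are called here the longer-gene set (positive) and the shorter-gene set (negative). Replicate 1 of Δ133p53α1 exceeded the mean of its other replicates by more than 1.5 on the log2 scale in 1742 genes and fell short by as much in 728. In replicate 1 of the control this held for 133 and 738 genes. Because 3 of 4 Δ133p53α1 libraries lie in one set and 3 of 4 control libraries in the other, results for named genes are given with their value after the set was added to the fit where that changes the call. Within the longer-gene set, replicate 1 of Δ133p53α1 was compared with replicates 2 to 4 of the control, and within the shorter-gene set, replicates 2 to 4 of Δ133p53α1 with replicate 1 of the control. Replicate 3 of the control also stood apart in stress response genes: GDF15 had 48, then 19, 1719 and 10 reads in the control, and TRIB3 1067, then 664, 6989 and 584. Of 12 leukocyte markers 2 had enough reads to be tested, neither was called, and PTPRC, CD3E, MS4A1 and FCGR3A had 0 reads in all 8 libraries. The H1299 carcinoma markers KRT8, KRT18 and VIM were abundant in both lines.

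Of 18295 tested genes, 472 (2.58%) differed between Δ133p53α1 and the control by both criteria used here, an adjusted p under 0.05 and a difference of 1.5 or more on the log2 scale. Of these genes, 190 (1.04%) rose and 282 (1.54%) fell. By the p-value alone, 355 genes (1.94%) were higher and 529 (2.89%) lower in Δ133p53α1. The number called by both criteria depended on single libraries of the clone: it was 1606 without replicate 1, and 314 without replicate 2 and without replicate 3. Among the genes that rose, 128 were protein-coding, 41 were lncRNA genes and 15 were pseudogenes, and among those that fell, 214, 54 and 12. The 4 and 4 libraries did not overlap in 181 of the 190 and in 258 of the 282, whereas 4.91% and 6.01% of all tested genes did not overlap in the same directions. The calls were made on the same libraries, so a larger share among the called genes was built in. After the library set was added to the fit, 149 of the 190 and 248 of the 282 were called again in the same direction. The genes that fell included many that were close to silent in the clone, with at most 3 reads in every Δ133p53α1 library for 70 of them and no read at all for 24. In the opposite direction, 33 of the genes that rose had at most 3 reads in every control library, and 7 had none. For 23 of the 70, the other clones too had at most 3 reads in each of their 15 libraries. The median exon length was 3205 bases among the genes that rose and 4843.5 bases among those that fell, against 4280 bases over all tested genes.

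**Figure D1:**
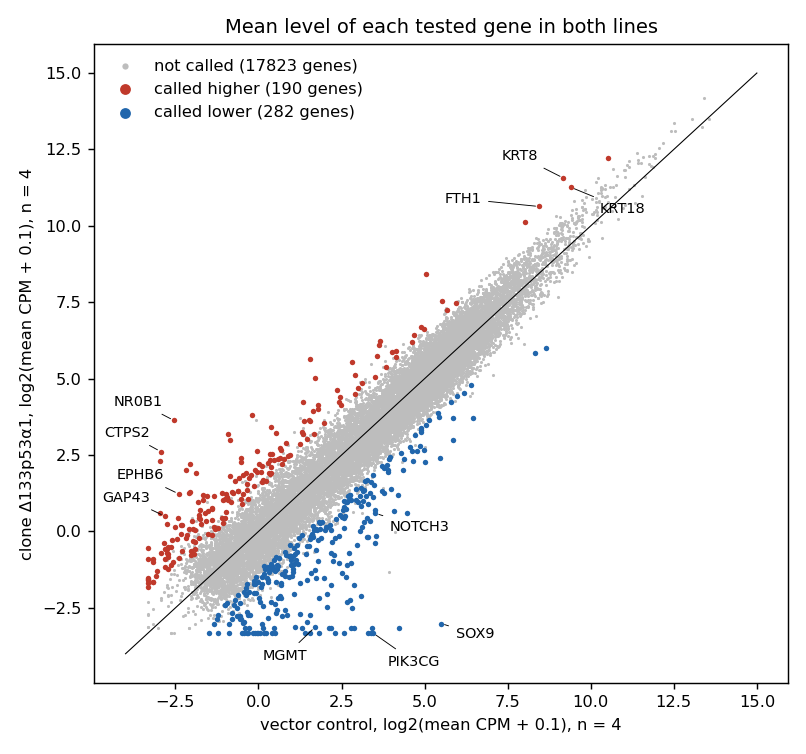
Mean level of the 18295 tested genes in the control (horizontal) and in Δ133p53α1 (vertical), both as log2(mean CPM + 0.1) over 4 libraries; the line marks equal levels. The 190 genes called higher (red) and the 282 called lower (blue) lie on both sides of it, and many of the latter lie along the bottom edge, where Δ133p53α1 had no or few reads.

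Within the sets of libraries, the direction of the called genes was nearly always kept. Of the 472 genes, 471 had the same sign in the longer-gene and in the shorter-gene set, whereas 62.5% of all tested genes did. The exception was ENSG00000239470. The genes were called on the same 8 libraries, and a gene without overlap necessarily has the same sign in both contrasts. This agreement was thus largely fixed by the calling and is not separate evidence. In each of these contrasts a line is represented by 1 library, which is assumed to vary like the other lines, and 41 of the 190 and 51 of the 282 genes were called within both sets. Some called genes named for the comparison with the control lost their call within the longer-gene set, and part of these within the shorter-gene set too. Other genes described below, such as HOXD9, CD70 and TNIK, were not sorted in this way. Those lost within both sets are ADAMTS1, COL16A1, DUSP4, EFNB3, FTH1, HLA-F, HMOX1, ITGB2, KRT18, LTBP2, MAML3, PDGFRB, RPS26P15, SDF2L1, SLC40A1, STXBP6, VLDLR, WNT5B and WNT7B. Those lost within the longer-gene set alone are BMP4, BMP7, COL13A1, FAM230C, FTL, GAP43, KRT8P10, LIF, NOTCH3 and SPATC1.

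**Figure D2:**
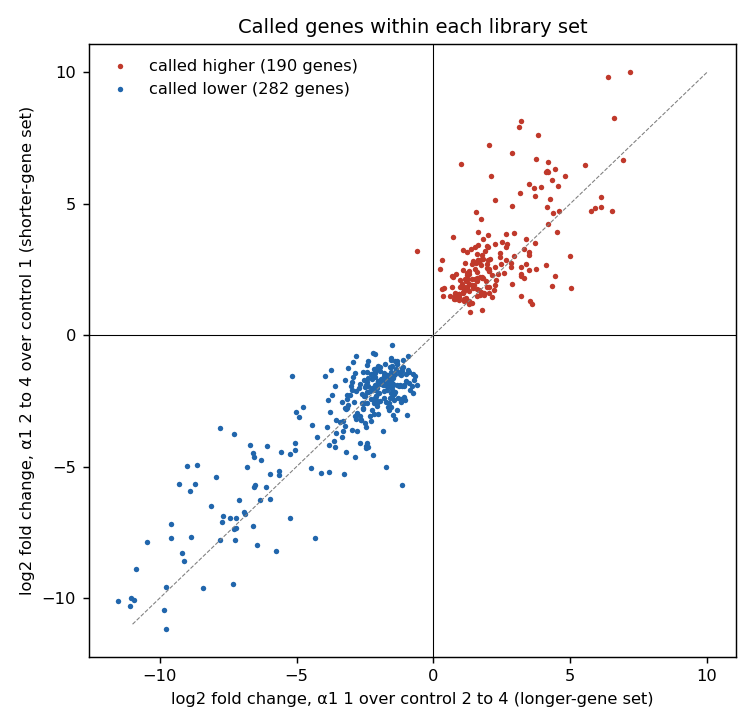
Log2 fold changes of the 472 called genes within the longer-gene set (horizontal: replicate 1 of Δ133p53α1 over replicates 2 to 4 of the control) and within the shorter-gene set (vertical: replicates 2 to 4 of Δ133p53α1 over replicate 1 of the control); the dashed line marks equal values. All but 1 gene lie in the upper right or lower left corner.

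The 12 largest rises among protein-coding genes included secreted factors and receptors of the nervous system and of development. They were taken from 79 genes called with and without the set term, with a mean of at least 1 CPM in Δ133p53α1 and no overlap of the libraries. RSPO4, an R-spondin that enhances Wnt signalling, had 80, then 56, 100 and 120 reads in Δ133p53α1 and 2, then 2, 9 and 1 in the control. GDNF, a ligand of the RET receptor complex, had 62, then 50, 58 and 16 reads against 1, then 6, 3 and 3. All 4 clone libraries were above all control libraries for both ligands. Their log2 fold changes were 4.95 (standard error 0.487, adjusted p = 1.6e-06) for RSPO4 and 4.05 (standard error 0.539, adjusted p = 6.46e-05) for GDNF, from edgeR.

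Among the receptors and adhesion molecules, EPHB6, an Eph receptor without kinase activity, had 40, then 52, 57 and 29 reads in Δ133p53α1 and 4, then 1, 3 and 1 in the control. LRRC4C, a postsynaptic ligand of netrin-G1, had 141, then 84, 54 and 30 reads against 1, then 9, 2 and 4. Replicate 1 of the clone was thus the highest library for LRRC4C and lay within the other 3 for EPHB6. The log2 fold changes were 4.54 (standard error 0.726, adjusted p = 0.000513) for EPHB6 and 4.44 (standard error 0.664, adjusted p = 0.000283) for LRRC4C. GAP43, a growth cone protein of neurons, rose from 0, then 1, 2 and 1 reads to 13, then 28, 35 and 26, with the lowest count in replicate 1. Its log2 fold change was 4.83 (adjusted p = 0.00049 from edgeR), 3.19 within the longer-gene set (adjusted p = 0.24) and 8.14 within the shorter-gene set (adjusted p = 0.0164).

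Enzymes and nuclear proteins made up most of the other large rises. CTPS2, which makes CTP from UTP, had 160, then 107, 101 and 120 reads in Δ133p53α1 and 3 reads in the control libraries together. The ratio of its levels was 198, with a 95% interval from 67.5 to 965 that covers counting error only. NR0B1 (DAX1), an orphan nuclear receptor that represses transcription, had 202, then 233, 273 and 262 reads against 1, then 2, 3 and 1 (7.32 ± 0.407 on the log2 scale, edgeR's adjusted p = 5.46e-10). MAD1L1, a component of the spindle assembly checkpoint, had 152, then 261, 298 and 362 reads against 33, then 11, 20 and 13. In MAD1L1 the replicate 1 libraries of both lines lay closest to each other, and its log2 fold change of 4.15 was 3.51 with the set as a term (adjusted p = 3.85e-07). ZNF22, a zinc finger protein, had 209, then 179, 143 and 101 reads against 10, then 12, 15 and 8 (log2 fold change 4.07, standard error 0.272).

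Calcium- and membrane-related genes completed the list. ANXA3, a calcium-dependent phospholipid-binding annexin, had 229, then 198, 200 and 103 reads in Δ133p53α1 and 9, then 12, 11 and 10 in the control, which is 4.38 on the log2 scale (standard error 0.284, adjusted p = 3.8e-09). CRACR2A, a calcium sensor of store-operated calcium entry, had 47, then 25, 22 and 24 reads in Δ133p53α1 against 3 reads in the control together, a ratio of 48.0 with a 95% counting interval from 16 to 236. STXBP6 (amisyn), which binds SNARE proteins, had 25, then 33, 26 and 3 reads against 0, then 2, 3 and 0. Replicate 4 of the clone was thus near the level of the control, and STXBP6 was past the threshold within neither set (adjusted p = 0.134 and 0.0762).

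**Figure D3:**
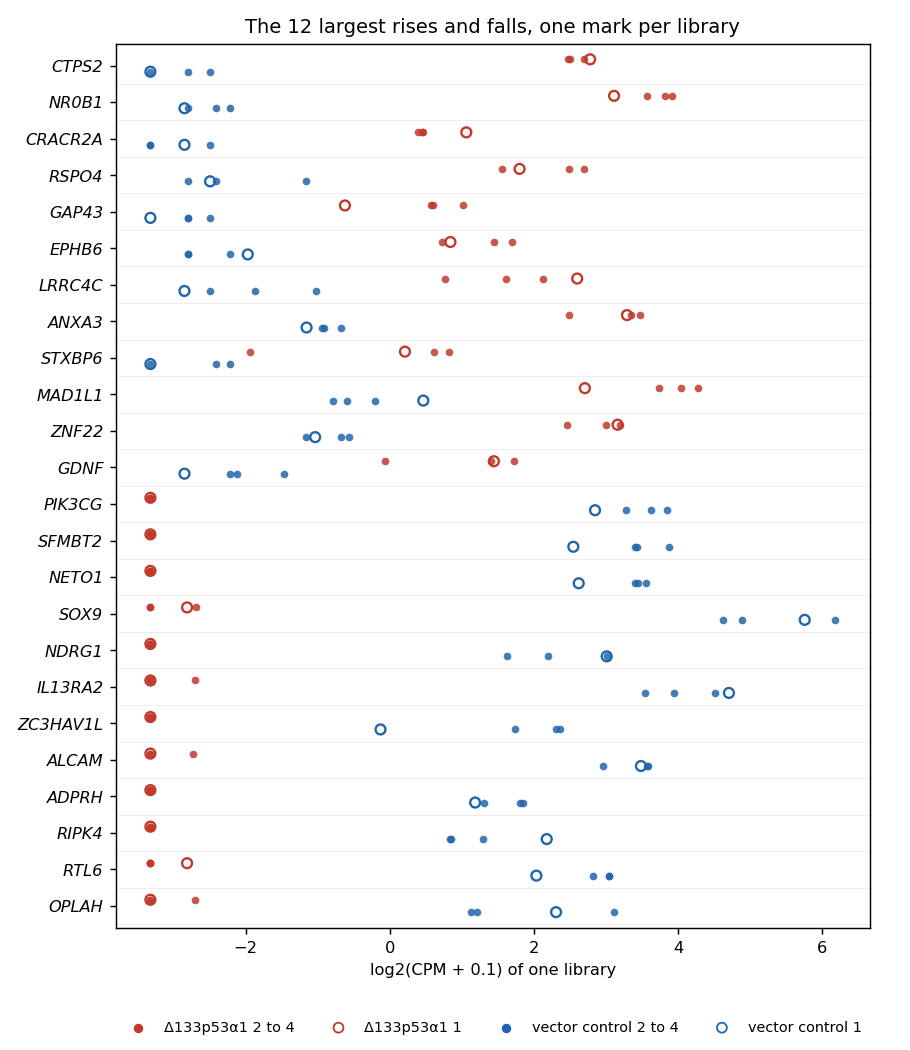
Level of the 12 protein-coding genes with the largest rise (above) and the 12 with the largest fall (below), one mark per library on a log2(CPM + 0.1) scale; open circles are replicate 1 of each line, filled points replicates 2 to 4. Δ133p53α1 (red) and the control (blue) do not overlap for any of the 24 genes, which was a condition of their choice, so the open circles lie on the side of their own line.

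The 12 largest falls were all to 0, 1 or 2 reads in the Δ133p53α1 libraries together. They were taken from 150 genes under the same conditions. For genes without a single read in the clone, the fall was computed against 3 reads per library and is a lower bound that covers counting error only. SOX9, a transcription factor of lung and cartilage development, had 1391, then 678, 1892 and 565 reads in the control, and 1, then 0, 1 and 0 in Δ133p53α1. The control was 1856-fold above the clone, with a 95% counting interval from 513 to 15327. SFMBT2, a Polycomb group protein, had 148, then 333, 278 and 243 reads in the control and none in Δ133p53α1, a fall of at least 68.6-fold. RTL6, a gene derived from a retrotransposon, had 103, then 160, 212 and 188 reads against 1 read, in replicate 1 of the clone.

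Other losses were of receptors and signalling enzymes. PIK3CG, the catalytic γ subunit of phosphoinositide 3-kinase that is mostly found in leukocytes, had 183, then 329, 251 and 284 reads in the control and 0 in every Δ133p53α1 library, at least 71.8-fold lower. IL13RA2, the decoy receptor of interleukin-13, had 670, then 265, 590 and 352 reads in the control and 1 read in the clone. ALCAM (CD166), an adhesion molecule, had 286, then 176, 306 and 274 reads and likewise 1 read in the clone. The control exceeded the clone 1539-fold for IL13RA2 (95% counting interval from 276 to 60822) and 854-fold for ALCAM (153 to 33779). NETO1, an accessory subunit of glutamate receptors, had 156, then 241, 280 and 268 reads against none, at least 64.4-fold lower. RIPK4, a kinase of epidermal differentiation, had 114, then 39, 61 and 39 reads against none, at least 16.8-fold lower.

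The remaining losses were of enzymes and of factors of varied function. NDRG1, which is induced by hypoxia and iron chelation, had 205, then 103, 209 and 69 reads in the control and none in Δ133p53α1, at least 38.8-fold lower. OPLAH, the 5-oxoprolinase of the glutathione cycle, had 125, then 51, 222 and 48 reads against 1 read in replicate 4 of the clone. ADPRH, an ADP-ribosylarginine hydrolase, had 56, then 78, 91 and 55 reads against none, at least 19.0-fold lower. ZC3HAV1L, a paralog of the zinc finger antiviral protein, had 21, then 111, 84 and 116 reads against none, at least 23.0-fold lower, and its replicate 1 was the lowest of the control. With DESeq2's Wald test, NDRG1, ZC3HAV1L and RIPK4 were not past 0.05 (adjusted p = 0.145, 0.173 and 0.255), whereas edgeR gave 0.000473, 0.00145 and 0.00225.

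Several of these genes were at the level of Δ133p53α1 in the other clones too. CTPS2 ranged from 3.72 to 10.8 CPM over the 15 libraries of the other clones, around the 6.03 ± 0.651 CPM (SD, n = 4) of Δ133p53α1. SOX9 was at most 0.208 CPM and RIPK4 at 0 in every library of the other clones. ANXA3 was not at the same level: it ranged from 10.9 to 44.2 CPM in the other clones, above the mean of 9.05 ± 2.44 CPM (SD, n = 4) in Δ133p53α1. SFMBT2 ranged from 0 to 11 CPM and IL13RA2 from 0 to 7.51 CPM, so that some libraries of the other clones kept these transcripts. The comparisons of the clones with the control share the same 4 control libraries and are not independent.

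Noncoding genes showed the same range of changes. LINC02780 had 93, then 100, 128 and 59 reads in Δ133p53α1, and 3 reads in replicate 3 of the control and none in the others, a ratio of 154 with a 95% counting interval from 52.5 to 752. ZNF22-AS1, which lies beside ZNF22 on the opposite strand, had 24, then 28, 29 and 20 reads against 0, then 2, 1 and 5 (3.85 ± 0.541 on the log2 scale, edgeR's adjusted p = 0.000122). Among the transcripts that fell, MAGI2-AS3 had 140, then 143, 228 and 201 reads in the control and 1 read in the clone. LINC00664 had 32, then 29, 31 and 29 reads in the control and none in Δ133p53α1, at least 8.20-fold lower, and FAM230C had 20, then 31, 27 and 26 against none, at least 7.10-fold lower. The pseudogene LDHAL6FP had 111, then 119, 117 and 120 reads in the control and none in the clone, at least 31.8-fold lower. Reads of other pseudogenes may come from near-identical genes and are uncertain. This applies to MTND2P28, a copy of a mitochondrial gene with 554, then 719, 952 and 1642 reads against 50, then 62, 73 and 92, to KRT8P10 with 11, then 24, 19 and 24 against 2, then 2, 0 and 3, and to RPS26P15. RPS26P15 had 7, then 272, 12 and 16 reads, so that its mean of 3.90 ± 6.59 CPM (SD, n = 4) rested on replicate 2.

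Epithelial keratins were among the most abundant transcripts that rose. KRT8 and KRT18 encode the partners of the simple epithelial keratin filament and lie next to each other on chromosome 12. KRT8 had 42637, then 62039, 68034 and 64703 reads in Δ133p53α1 and 18964, then 13297, 11255 and 13057 in the control. KRT18 had 29618, then 51549, 57304 and 52436 reads against 24034, then 15612, 12037 and 14810. For both genes replicate 1 was the lowest library of the clone and the highest of the control, without overlap. KRT8 rose 5.25-fold (2.39 ± 0.350 on the log2 scale, edgeR's adjusted p = 0.000208), and 1.98 on the log2 scale with the set as a term (adjusted p = 4.03e-06). KRT18 rose 3.61-fold (log2 fold change 1.85, adjusted p = 0.00816), and with the set as a term its log2 fold change of 1.36 (adjusted p = 0.00212) was under the fold threshold. These were 2 of the 12 tested epithelial genes (16.7%, against 2.58% of all tested genes), and no other member was called. The tight junction gene TJP1 had the lowest value of the list (log2 fold change -1.19, adjusted p = 0.111), and the desmosomal gene DSP was called with the set as a term alone (1.96, adjusted p = 0.00427). The desmosomal plakophilin PKP3 passed the p-value but not the fold threshold (log2 fold change 1.45, adjusted p = 0.0363). Of 17 mesenchymal genes tested, PDGFRB, the platelet-derived growth factor receptor β, was the 1 that was called (5.88%). It fell from 13, then 25, 47 and 25 reads to 8, then 4, 4 and 3 (-2.24 ± 0.429 on the log2 scale, adjusted p = 0.00281). PDGFRB is also 1 of 10 fibroblast markers, of which 2 were tested. The other, COL1A1, had a log2 fold change of 0.88 and was not called, while LUM had 0 reads and DCN at most 5 in any of the 8 libraries. The intermediate filament gene VIM differed by 0.07 on the log2 scale (adjusted p = 0.879). The median log2 fold change was 0.92 over the epithelial and 0.07 over the mesenchymal genes, against -0.08 over all tested genes. With the set as a term the medians were 0.52, -0.19 and -0.05.

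Promoters of the protein-coding genes that rose were searched for the p53 decamer, the 10-base palindromic motif that p53 binds as an adjacent pair. RefSeq promoters from 250 bases before to 50 bases after the first listed start (GRCh38.p14) were found for 103 of the 128 genes (80.5%), and 5 of them (4.85%) held a decamer. Among all tested protein-coding genes, 10535 had a promoter sequence and 550 (5.22%) held a decamer. For the genes that fell, a sequence was found for 71.5%, under the 80% required here for such a comparison, so none was made. The upstream parts of 2 of the 5 are printed here, because KRT8 was among the most abundant transcripts that rose and STXBP6 among the largest rises. They show the 250 bases before the RefSeq start on the minus strand, with the decamer in capitals, and a match of letters is not a binding site. They are KRT8 (chr12:52926470-52926719) and STXBP6 (chr14:25050148-25050397).
KRT8: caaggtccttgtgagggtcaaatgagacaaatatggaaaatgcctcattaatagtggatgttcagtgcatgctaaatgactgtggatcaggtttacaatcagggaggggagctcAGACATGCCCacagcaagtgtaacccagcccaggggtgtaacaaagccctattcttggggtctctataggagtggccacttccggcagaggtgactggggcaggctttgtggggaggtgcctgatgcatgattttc
STXBP6: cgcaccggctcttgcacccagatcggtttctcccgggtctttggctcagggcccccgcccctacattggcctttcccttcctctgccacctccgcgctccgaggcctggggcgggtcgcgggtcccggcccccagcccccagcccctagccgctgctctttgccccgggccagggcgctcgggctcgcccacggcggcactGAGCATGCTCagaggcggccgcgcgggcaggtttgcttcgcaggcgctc

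Of 21 tested genes of iron handling and ferroptosis, 5 were called (23.8%, against 2.58% of all tested genes). Ferritin, made of the heavy chain FTH1 and the light chain FTL, stores iron, HMOX1 releases it from heme, and SLC40A1 (ferroportin) exports it from cells. FTH1 had 14610, then 43182, 34558 and 30933 reads in Δ133p53α1 and 12679, then 6466, 8728 and 6670 in the control. FTL had 55206, then 114636, 120029 and 83940 against 41085, then 32783, 37771 and 33790. HMOX1 had 2384, then 6354, 4228 and 1670 against 1004, then 1242, 640 and 1533. The lines did not overlap for any of these genes, but replicate 1 of the clone lay near the highest control library for FTH1. FTH1 rose 4.55-fold (2.19 ± 0.486 on the log2 scale, edgeR's adjusted p = 0.00982), FTL 3.24-fold (1.70, standard error 0.458, adjusted p = 0.0346) and HMOX1 4.05-fold (2.02, standard error 0.538, adjusted p = 0.0325). With the set as a term the log2 fold changes were 1.68 for FTH1 (adjusted p = 0.0113), 1.87 for HMOX1 (adjusted p = 0.0454) and 1.07 for FTL, which was no longer called (adjusted p = 0.0578). Within the longer-gene set none of them was called, with 1.03 for FTH1, 0.69 for FTL and 1.06 for HMOX1, and with 1 surrogate variable FTH1 (1.46) and FTL (0.95) were under the fold threshold.

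In the other direction, SLC40A1 fell from 49, then 23, 86 and 27 reads to 21, then 8, 7 and 4 (-1.93 ± 0.539 on the log2 scale, edgeR's adjusted p = 0.0417). NDRG1, described above, was the fifth called gene of the iron list. AIFM2 (FSP1), a suppressor of ferroptosis, had 1348, then 1895, 1832 and 1695 reads against 931, then 900, 801 and 861, and passed the p-value but not the fold threshold (log2 fold change 1.26, adjusted p = 0.0044). The call of FTL was lost without any 1 of replicates 2, 3 and 4 of the clone or of the 4 control libraries (log2 fold changes from 1.52 to 1.76). That of HMOX1 was lost without replicate 2 or 3 of the clone or replicate 1, 2 or 3 of the control (1.64 to 2.14). SLC40A1 was not called without replicate 2, 3 or 4 of the clone or replicate 1 or 3 of the control (-1.92 to -1.47). The median of the list was -0.17.

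Genes of the extracellular matrix and of its receptors changed in both directions. Called were 3 of 15 tested collagens, 2 of 24 integrin and laminin genes (8.33%) and 1 of 21 matrix proteases and inhibitors (4.76%). Over all tested genes the share called was 2.58%. Of 15 tested collagens, COL4A6, a basement membrane chain, rose from 6, then 2, 4 and 2 reads to 87, then 34, 30 and 45 (4.01 ± 0.491 on the log2 scale, edgeR's adjusted p = 2.26e-05). COL16A1, a fibril-associated collagen, rose from 38, then 10, 48 and 21 reads to 76, then 99, 92 and 180 (log2 fold change 2.28, adjusted p = 0.00292). COL13A1, a transmembrane collagen, fell from 295, then 41, 193 and 39 reads to 6, then 2, 6 and 9 (log2 fold change -4.25, adjusted p = 0.000658). Of 24 integrin and laminin genes, the leukocyte integrin chain ITGB2 rose from 4, then 6, 4 and 5 reads to 27, then 27, 24 and 21 (2.63 ± 0.616 on the log2 scale, adjusted p = 0.0144). The laminin chain LAMC3 fell from 84, then 74, 102 and 71 reads to 12, then 16, 9 and 21 (-2.20 ± 0.306 on the log2 scale, adjusted p = 0.000112). ADAMTS1, a secreted metalloproteinase, was the 1 called among 21 matrix proteases and inhibitors. Its libraries overlapped, with 40, then 18, 12 and 14 reads against 57, then 135, 35 and 153 (log2 fold change -1.98, adjusted p = 0.0361), and the call was lost without replicate 2, 3 or 4 of the clone or replicate 2 or 4 of the control (-1.92 to -1.6).

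Of 26 tested Wnt pathway genes 3 were called (11.5%, against 2.58% of all tested genes). All 3 rose: RSPO4, described above, and the ligands WNT5B and WNT7B. WNT5B had 1435, then 1876, 2326 and 2061 reads in Δ133p53α1 and 1100, then 778, 354 and 821 in the control (1.65 ± 0.371 on the log2 scale, edgeR's adjusted p = 0.0108). With the set as a term, the WNT5B difference was 1.21 (adjusted p = 0.0027), under the fold threshold, and without replicate 3 of the control it was 1.43. WNT7B had 13, then 20, 21 and 108 reads against 5, then 8, 11 and 5, and its call (log2 fold change 2.81, adjusted p = 0.0408) rested on replicate 4 of the clone, without which it was 1.62 (adjusted p = 0.248). The call of WNT7B was also lost with the set as a term (2.30, adjusted p = 0.088) and without replicate 2 or 3 of the clone or any 1 control library (2.65 to 3.08).

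Of 23 TGF-β and BMP genes, 3 were called (13.0%, against 2.58% of all tested genes). The ligand BMP7 fell from 40, then 42, 29 and 39 reads to 2, then 0, 1 and 1 (-4.82 ± 0.570 on the log2 scale, edgeR's adjusted p = 0.000917). The ligand BMP4 rose from 13, then 15, 21 and 19 reads to 35, then 43, 39 and 40 (log2 fold change 1.5, adjusted p = 0.00404). BMP4 was at the fold threshold and fell under it with the set as a term (1.27) and without replicate 2, 3 or 4 of the clone or replicate 1 of the control (1.37 to 1.49). LTBP2, a latent TGF-β binding protein of the matrix, had 543, then 268, 220 and 500 reads in Δ133p53α1 and 1122, then 840, 2873 and 752 in the control (log2 fold change -1.56, adjusted p = 0.0138). Replicate 3 of the control, the library with high stress genes, was the highest, and without it the LTBP2 difference was -0.97 (adjusted p = 0.0987). The LTBP2 call was also lost without replicate 2 or 3 of the clone (-1.41 and -1.38) and with the set as a term (-1.42). The median of the list was -0.53, and -0.26 with the set as a term.

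Of 21 Notch pathway genes, 2 were called (9.52%, against 2.58% of all tested genes). The receptor NOTCH3 fell from 211, then 126, 696 and 119 reads to 49, then 17, 26 and 24 (-3.0 ± 0.477 on the log2 scale, edgeR's adjusted p = 0.000495). The control libraries again held their highest NOTCH3 count in replicate 3, and all 4 lay above the clone. The coactivator MAML3 had 78, then 30, 10 and 38 reads against 81, then 125, 299 and 98, with a log2 fold change of -1.70 (adjusted p = 0.0317) that was -1.17 without replicate 3 of the control (adjusted p = 0.164). The MAML3 call was also lost without replicate 2, 3 or 4 of the clone or replicate 2 of the control (-1.73 to -1.39) and with the set as a term (-1.35). Of 18 NF-κB and inflammatory genes, 1 was called (5.56%). This was the cytokine LIF, which fell from 660, then 357, 1172 and 309 reads to 119, then 104, 72 and 97 (-2.35 ± 0.312 on the log2 scale, adjusted p = 6.16e-05).

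Among 36 tested axon guidance ligands and receptors, 2 were called (5.56%, against 2.58% of all tested genes). A further 5 passed the p-value threshold alone, and 4.83% of all tested genes passed it with or without the fold threshold. With the set as a term 5 were called higher and 1 lower, where 2.85% of all tested genes were called. The called genes were EPHB6, described above, and EFNB3, a transmembrane ephrin ligand of Eph receptors. EFNB3 had 29, then 22, 33 and 63 reads in Δ133p53α1 and 107, then 84, 318 and 76 in the control (log2 fold change -1.63, adjusted p = 0.0382 from edgeR). Without replicate 3 of the control, the EFNB3 difference was -0.94 (adjusted p = 0.239), and the call was also lost without replicate 1, 2 or 3 of the clone (-1.6 to -1.42). The semaphorin receptor NRP2 had 247, then 159, 142 and 178 reads against 76, then 78, 66 and 99, a difference of 1.44 (standard error 0.217, adjusted p = 0.000303) on the log2 scale that reached 1.58 with the set as a term. The others past the p-value threshold were SEMA7A (1.16) and EPHB2 (0.92), which were higher, and SEMA4D (-1.17) and PLXNA1 (-0.80), which were lower in Δ133p53α1. With the set as a term, PLXNA2 (3.13), SLIT2 (1.69) and ROBO2 (1.94) were called higher besides EPHB6 and NRP2.

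Each list in this paragraph held 1 called gene, 4.00% to 5.56% of its tested members, against 2.58% of all tested genes. Of 20 MAPK feedback and early response genes, the dual-specificity phosphatase DUSP4 rose from 13, then 16, 32 and 11 reads to 60, then 60, 71 and 67 (2.15 ± 0.398 on the log2 scale, edgeR's adjusted p = 0.00201). The AP-1 subunit FOSL1 (1.36, adjusted p = 0.0193) and the phosphatase DUSP6 (-1.49, adjusted p = 0.0319) passed the p-value threshold alone, in opposite directions. Of 18 PI3K-AKT pathway genes, PIK3CG was called and AKT1 differed by 0.75 (adjusted p = 0.0123). In the DNA repair list, MGMT, which removes alkyl groups from guanine, was the 1 of 25 genes called. MGMT had 123, then 54, 85 and 51 reads in the control and 1 read in Δ133p53α1, 257-fold higher in the control with a 95% counting interval from 45.7 to 10169. HLA-F, a nonclassical MHC class I gene, rose from 13, then 14, 23 and 12 reads to 48, then 44, 49 and 37 (log2 fold change 1.82, adjusted p = 0.000934) as the 1 of 18 antigen presentation genes, and reads may be shared with other HLA genes.

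Among the 29 tested p53 target genes none was called, where 2.58% of all tested genes were, a share that corresponds to less than 1 gene in a list of this size. CDKN1A, the cell cycle inhibitor p21, had 951, then 1261, 1162 and 1318 reads in Δ133p53α1 and 1123, then 704, 1003 and 576 in the control (0.79 ± 0.276 on the log2 scale, edgeR's adjusted p = 0.096). MDM2, the ubiquitin ligase of p53, differed by -0.05 (standard error 0.221, adjusted p = 0.878). PLK3 (1.09, adjusted p = 0.0376) and the autophagy gene DRAM1 (-0.55, adjusted p = 0.0475) passed the p-value threshold alone. GDF15, with its 1719 reads in replicate 3 of the control, gave a log2 fold change of -4.30 (adjusted p = 0.0925), and -5.32 with the set as a term, where it was called (adjusted p = 0.0414). The median over the list was -0.26, and -0.21 with the set as a term.

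No gene was called among 24 G1/S, 24 G2/M, 31 endosomal recycling, 19 glycolysis, 22 cholesterol synthesis, 20 interferon-stimulated, 14 heat shock or 16 histone genes, nor among 6 tested genes of surface proteins. In lists of these sizes the 2.58% called over all tested genes corresponds to less than 1 gene each. The 6 were MET, ITGA5, EGFR and TFRC, whose proteins the study stained, and KDR and FLT4, which encode VEGF receptors other than the stained VEGFR1. The genes of the stained VEGFR1 (FLT1) and ALK1 (ACVRL1) had too few reads to be tested, at most 5 and 9 in any of the 8 libraries. The control libraries were uneven in the G1/S, G2/M and heat shock lists. Their summed levels ran from 2426 to 5620, from 2612 to 5066 and from 6561 to 18783 CPM in that order. In Δ133p53α1 the sums were 5354 to 6331, 4680 to 5002 and 13539 to 20247 CPM. With the set as a term, the interferon-stimulated gene ISG15 was called lower (-1.84, adjusted p = 0.000249). CCNE1, cyclin E1, passed the p-value threshold alone (log2 fold change 0.75, adjusted p = 0.0251 from edgeR). So did EHD3, a membrane remodelling ATPase of recycling endosomes, which had 104, then 64, 50 and 33 reads in Δ133p53α1 and 220, then 173, 302 and 153 in the control (-1.49, standard error 0.246, adjusted p = 0.000728). The recycling genes MYO5B (1.01, adjusted p = 0.0491) and RAB14 (-0.82, adjusted p = 0.0441) went in opposite directions. Of 23 hypoxia response genes, NDRG1 was the 1 called (4.35%, against 2.58% of all tested genes). VEGFA had a log2 fold change of -1.29 (adjusted p = 0.0437) with its highest count in replicate 3 of the control. The median of the hypoxia list was -0.63, and -0.57 with the set as a term. Of 24 genes of the integrated stress and unfolded protein responses, 2 were called (8.33%). SDF2L1, an endoplasmic reticulum chaperone cofactor, had 445, then 1108, 1376 and 1147 reads against 527, then 245, 124 and 254 (log2 fold change 2.18, adjusted p = 0.0498), and replicate 1 of the clone lay below replicate 1 of the control. The SDF2L1 call was lost with the set as a term (1.42) and without replicate 2, 3 or 4 of the clone or 2, 3 or 4 of the control (1.95 to 2.18). VLDLR, a lipoprotein receptor of the same list, fell from 619, then 629, 1066 and 620 reads to 284, then 189, 141 and 165 (log2 fold change -1.64, adjusted p = 0.00176), with -1.42 without replicate 3 of the control and -1.45 with the set as a term.

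The 56 cytosolic ribosomal protein genes had a median log2 fold change of 0.77, of 0.21 with the set as a term, of -0.04 within the longer-gene set and of 0.50 within the shorter-gene set. Their summed level was 4.40e+04 CPM in replicate 1 of Δ133p53α1 and 9.17e+04 to 1.14e+05 CPM in replicates 2 to 4, against 7.46e+04 CPM in replicate 1 of the control and 4.52e+04 to 4.97e+04 CPM in replicates 2 to 4. Replicate 1 of the clone was thus below every control library, and none of the genes was called. The 30 nuclear respiratory chain genes behaved alike, with medians of 0.67, 0.17, 0.09 and 0.37 in the same order. The 13 mitochondrially encoded genes had medians of 0.50, 0.38, -0.05 and 0.51.

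To see what set Δ133p53α1 apart from the other Δ133p53 cell lines, it was compared with the mean of Δ133p53α2, Δ133p53α8, Δ133p53β5 and Δ133p53β10, without the control. This gave 171 genes (0.935% of those tested), of which 120 (0.656%) were higher and 51 (0.279%) lower in Δ133p53α1. Among them, 30 and 26 were also called against the control in the same direction. Without replicate 1 of Δ133p53α1 the number was 539. EPHB6 had the largest log2 fold change among the named rises here, at 2.25 ± 0.760 CPM (SD, n = 4) in Δ133p53α1 and at most 0.513 CPM in any library of the other clones (log2 fold change 4.50, adjusted p = 6.36e-06 from edgeR). TNIK, a kinase that activates Wnt target genes, was at 74.6 ± 35.6 CPM (SD, n = 4) against 2.14 to 13.8 CPM in the other clones (3.66, adjusted p = 1.81e-08). TNIK reads were 2936, then 1427, 1128 and 755 in Δ133p53α1, with the highest count in replicate 1. DTX4, a ubiquitin ligase of the Notch pathway, was at 3.67 ± 0.646 CPM against 0.153 to 1.39 CPM (2.85, adjusted p = 5.39e-08). DUSP4 (2.49), TMEM108 (3.39) and TP53I11 (2.61) were likewise above every library of the other clones and called against the control too.

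The transcription factor genes AFF3 and NKX2-5 followed another pattern. NKX2-5, a cardiac homeobox gene, had 18, then 27, 34 and 28 reads in Δ133p53α1, 45, then 44, 21 and 31 in the control, and at most 0.653 CPM in the other clones. It differed from the other clones by 2.85 (adjusted p = 0.000243 from edgeR) and from the control by -0.08 (standard error 0.504, adjusted p = 0.914). AFF3 had 48, then 18, 11 and 11 reads against 9, then 13, 41 and 11 in the control, and differed from the other clones by 3.17 (adjusted p = 0.00111) and from the control by 0.49 (adjusted p = 0.61). For both genes Δ133p53α1 and the control overlapped.

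Among the genes that were lower in Δ133p53α1 than in the other clones, OPLAH stood at 1 read, whereas the other clones had 0.206 to 4.17 CPM (-6.07, adjusted p = 0.00104 from edgeR). HPDL, an enzyme of coenzyme Q synthesis, had 0, then 2, 2 and 2 reads in Δ133p53α1 and 144, then 95, 77 and 82 in the control, and 0.457 to 3.84 CPM in the other clones (-4.39, adjusted p = 0.000112). The chaperone HSPB8 had 2, then 0, 6 and 4 reads against 7, then 17, 8 and 14 in the control and 2.85 to 13.3 CPM in the other clones (-5.47, adjusted p = 1.62e-07). ZNF558 (-4.88) and the calcium channel gene TRPM2 (-4.79) were likewise lower than in every library of the other clones, whereas TRPM2 had at most 5 reads in any library of Δ133p53α1 or the control. TTN, the sarcomeric protein titin, had 73, then 23, 12 and 19 reads against 232, then 441, 642 and 344 in the control (-2.75 against the other clones, adjusted p = 0.000458). The channel kinase TRPM6 had 36, then 7, 5 and 8 reads against 159, then 213, 170 and 204 (-2.74 against the other clones, adjusted p = 0.00011), and the palmitoyltransferase ZDHHC15 8, then 7, 3 and 6 against 50, then 72, 115 and 51 (-2.58, adjusted p = 0.000434). In TTN and TRPM6 replicate 1 was the highest library of the clone and still below all control libraries.

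Called genes were in part neighbours on the chromosomes. Among tested genes in chromosomal order, 45 runs of at least 2 adjacent genes were called in the same direction, 17 runs higher and 28 lower. The 45 runs held 102 genes in all, and 9 of the runs held at least 3 genes. These runs were picked after their values were seen and were not tested. On chromosome 8, from 144012280 to 144063965, SPATC1, SMPD5 and OPLAH fell together, with 0, 1 and 1 reads in the 4 Δ133p53α1 libraries against 78, 427 and 446 in the control. On chromosome 19, from 6494319 to 6604103, the run held TUBB4A, the lncRNA ENSG00000268191 and the TNF superfamily ligands TNFSF9 and CD70. CD70 had 133, then 74, 48 and 83 reads in the control and 0, then 1, 4 and 4 in Δ133p53α1 (log2 fold change -4.84, adjusted p = 0.000331 from edgeR), and TNFSF9 had 22, then 10, 9 and 19 against none. On chromosome 10, from 44997698 to 45076066, ZNF22-AS1, ZNF22 and CEP164P1 rose. On chromosome 2, HOXD11, HOXD-AS2 and HOXD9 rose between 176104216 and 176137098, and HOXD9 had 347, then 459, 507 and 442 reads against 127, then 169, 264 and 163 (log2 fold change 1.6, adjusted p = 0.0187). With the set as a term, HOXD9 (1.15) and HOXD-AS2 (1.02) were under the fold threshold, and HOXD11 was called (2.57). TTN and TTN-AS1, which overlap on opposite strands, fell with 3 unnamed neighbours. The share of tested genes called ranged from 1.46% on chromosome 15 to 5.84% on the X chromosome.

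Of the 18 transcripts that the study's text names from its RNA sequencing, 9 rose, 8 fell and 1 was not called in Δ133p53α1. The study chose them on the same samples, so their directions are not independent evidence. Its text assigns the decrease of MGMT to the Δ133p53β lines. To the same lines it assigns the increases of GDNF, ZNF22, NR0B1, STAT6, CRACR2A, CALHM5 and TPM2. In another passage the study describes GDNF and ZNF22 as increased in Δ133p53 cells, and particularly so with Δ133p53β. All the genes assigned to the Δ133p53β lines but TPM2 were called here in the stated direction in Δ133p53α1, a clone of the α form. Besides those described above, STAT6, a transcription factor of interleukin-4 signalling, had 462, then 355, 328 and 353 reads in Δ133p53α1 and 59, then 45, 94 and 46 in the control (2.91 ± 0.249 on the log2 scale, edgeR's adjusted p = 2.36e-07). CALHM5, a calcium homeostasis modulator, had 141, then 93, 79 and 77 reads against 17, then 19, 9 and 13 (2.99, standard error 0.295). ERC2, a protein of the presynaptic active zone, had 48, then 59, 46 and 36 against 11, then 14, 10 and 11 (2.31, standard error 0.238). TPM2, a tropomyosin and the 1 that was not called, had 4571, then 8103, 10222 and 11023 reads in Δ133p53α1 and 9232, then 4809, 3557 and 4510 in the control, and its replicate 1 libraries lay in the reverse order of the others (log2 fold change 0.96, adjusted p = 0.152).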

How the data were processed

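Poly(A) RNA of the H1299 lines was made into strand-specific libraries. By the study's methods, Cutadapt trimmed the reads, HISAT2 placed them on GRCh38, and featureCounts counted exons by gene with Ensembl models. Whether counting used the strand, and what became of multi-mapping reads, is not given in the sources used here. The deposited values are raw counts, for 60563 named genes and 1 row without a name that was left out. By the labels Δ133p53β5 has 3 libraries and Δ133p53β10 has 5, while the table names 4 of each. The fourth Δ133p53β5 column, 1 in all, could be of either clone and was not used, which left 23 libraries in 6 lines. Gene types, positions and exon lengths came from GENCODE for GRCh38 and were matched by identifier or symbol.

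The counts were tested in R 4.3.3 with edgeR 4.0.16 (TMM, filterByExpr by line, quasi-likelihood test, 17 residual degrees of freedom), with Benjamini-Hochberg adjustment over all 18295 tested genes. Calls needed an adjusted p under 0.05 and a difference of 1.5 or more on the log2 scale, as in the study. No library repeated another (chi-square over degrees of freedom at least 18.5 within a line). The procedure was tested on simulated counts that held no library sets, so that test does not bear on the sets. Tried beside it were size factors by RLE, no filter, only genes averaging 1 CPM or more, the replicate block, the library set as a term, contrasts within each set, 1 surrogate variable (sva 3.50.0), the 8 libraries alone, limma-voom (limma 3.58.1), DESeq2 1.42.0, a fold change of at least 1.5, and each library left out. Leaving out both replicate 1 libraries was added after seeing the data. Ratios and bounds against 0 to 3 reads cover counting error only, since reads without molecular identifiers are not independent molecules. The bounds use 3 reads per library and the intervals are exact binomial at 95%.

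The members, gene lists and tests were chosen with earlier results of these data known. Named genes were the 12 largest rises and 12 largest falls among protein-coding genes and 5 and 5 among noncoding genes that were also called with the set term, had a mean of at least 1 CPM in the higher line and did not overlap. To these were added 8 and 8 genes against the other clones under the same conditions, the called members of the gene lists or up to 4 members with the largest difference, and the genes the study names. Lists are described by counts and medians, without a test. The result of 1 gene is not reported here.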

Additional observations from a re-analysis of the deposited data

Results flagged for a closer look

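Some libraries lay far from the others of their line by Dixon's criterion at 95%, which was met in 22 of 168 groups of values examined. For normally distributed values chance flags about 1 in 20. A gene with 0 reads in all libraries of a line but 1 always meets the criterion, so that rate does not hold for these counts. Replicate 1 stood apart in its length correlation in both lines (0.298 in Δ133p53α1 and -0.126 in the control) and in the total count of the control (25381731). In Δ133p53α1, a single library with 1 read or few reads above 0 gave ALCAM (0.0507 CPM), IL13RA2 (0.0533), MAGI2-AS3 (0.0533), OPLAH (0.0533), SMPD5 (0.0507), MGMT (0.0549) and RTL6 (0.0423), and HPDL was the reverse, with 0 CPM in replicate 1. Replicate 1 of Δ133p53α1 was the lowest for BMP4 (1.48 CPM) and the highest for CRACR2A (1.99 CPM) and TRPM6 (1.52 CPM). RPS26P15 reached 13.8 CPM in replicate 2 and WNT7B 5.75 CPM in replicate 4. In the control, replicate 3 was the highest for EFNB3 (12.2 CPM), LTBP2 (110 CPM), NOTCH3 (26.7 CPM), RSPO4 (0.345 CPM), LINC02780 (0.115 CPM) and ZNF558 (1.07 CPM). GDF15, TRIB3, DDIT4, SESN2 and ASNS were high in the same library, and the part of that in these values was not tested.

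The level in Δ133p53α1 differed from the mean level of the other clones in the 16 genes named for this comparison. They were chosen by edgeR's test of that same difference, so the difference itself was fixed by the choice. On the log2 scale the differences were 4.50 for EPHB6, 3.66 for TNIK, 3.39 for TMEM108, 3.17 for AFF3, 2.85 for NKX2-5 and for DTX4, 2.61 for TP53I11 and 2.49 for DUSP4. In the other direction they were -6.07 for OPLAH, -5.47 for HSPB8, -4.88 for ZNF558, -4.79 for TRPM2, -4.39 for HPDL, -2.75 for TTN, -2.74 for TRPM6 and -2.58 for ZDHHC15.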

How the results depend on the processing

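The number of genes called against the control (472) was between 323 and 631 with RLE size factors, no filter, the replicate block, the set as a term, 1 surrogate variable, the 8 libraries alone, limma-voom and DESeq2. It was 269 when only genes averaging 1 CPM or more were tested, 126 within the longer-gene and 254 within the shorter-gene set, where a line is 1 library, and 870 at a fold change of at least 1.5. Leaving out 1 library gave 314 to 1606 genes: 1606 (490 higher, 1116 lower) without replicate 1 of Δ133p53α1, and 314 without its replicate 2 or its replicate 3. Without both replicate 1 libraries it was 2578 (962 higher, 1616 lower), where all Δ133p53α1 libraries left are in one set and all control libraries left in the other, so that line and set cannot be told apart. Against the other clones, the number (171) was 92 among genes averaging 1 CPM or more, 569 at a fold change of at least 1.5, and 117 to 539 with 1 library left out, the highest without replicate 1 of Δ133p53α1. With the replicate block, 387 genes were called against the control (156 higher, 231 lower) and 143 against the other clones. Equal replicate numbers did not pair the libraries: the deviations of same-numbered Δ133p53α1 and control libraries had correlations across genes of -0.783, 0.007, -0.294 and -0.566, and 0 of 4 Δ133p53α1 libraries correlated best with the control library of their own number. Under the block, 7 of 84 results of named genes lost their call, and 9 did with the set as a term. Genes named for the largest rises and falls had to be called with the set as a term. They could not lose that call, and the 9 are all members of the gene lists.

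Over 1529 values of named genes under an alternative, none reversed the direction of a called result, 146 lost and 1 gained a call, and 51 of 84 gene results kept their call throughout. Many of these genes were named by their call with the set as a term and by the absence of overlap, which raises these numbers. At the depth of these libraries, a count of 0 allows up to 3 reads, so absence of a transcript was not measured. The comparison with the control has 1 clone and 1 control line, so the spread between clones did not enter it.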
